A study of Mus musculus with 6 samples.

Results

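Fubp1, Syncrip and Cpeb2 are genes for RNA-binding proteins, and their mRNA levels were read on microarrays of neocortex from KHSRP-KO and WT mice. The 3 genes were taken by symbol from a table of the study that lists probes by their KHSRP-KO against WT difference on these same arrays. All 3 stand among the probes listed there as higher in KHSRP-KO, so that the direction of their differences was fixed by the choice, and the differences are given as a description with no test. Each gene has 1 named probe, which makes 3 probes of 1803 named probes for 1727 genes, among 60915 probes on the array.

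KHSRP, also called FUBP2, is a protein with KH domains that binds AU-rich elements of mRNAs and promotes their decay. Fubp1 encodes another protein of the same far-upstream-element-binding family, which binds single-stranded DNA and RNA and is known for its part in transcription and splicing. Syncrip encodes hnRNP Q, which acts in the stability, translation and transport of mRNAs and is found in transport granules of neurons. Cpeb2 encodes a cytoplasmic polyadenylation element binding protein, a family that controls translation from short U-rich sequences and is studied for its part in synaptic plasticity. All of them act on RNAs that other genes encode.

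The KHSRP-KO mice were adult males that lack Khsrp in every tissue because exons of the gene are deleted, on a C57Bl/6 background, and the WT mice were adult males from the same litters with no treatment in either group. Neocortex of 3 KHSRP-KO and 3 WT mice was used, with 1 array in 1 colour for each mouse. The sample labels give the tissue as cortex, while the study's table of probes heads the same samples PFC, and which region of the neocortex was taken is not settled here. The RNA had been depleted of ribosomal RNA and labelled from oligo(dT) and random primers, and it comes from whole tissue, so that fewer cells of a type and less RNA per cell cannot be told apart. Khsrp itself was not analysed here, and the genotypes rest on the sample labels. Of 24 marker genes of cortical cell types, only Snap25 for neurons and Slc1a2 for astrocytes had a named probe, and both probes were well above background on all 6 arrays.

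Between 71.3% and 82.6% of the 61500 spots that are not controls were well above background on an array, and 0 spots were saturated. With 3 arrays for each genotype, precision is set by their number. The 75th percentile of the log2 processed signal lay between 8.42 and 8.85 on the KHSRP-KO arrays and between 8.73 and 8.96 on the WT arrays, and it was subtracted from each array to give the scaled log2 signal. A shared scan time was read as a shared slide. KHSRP-KO 1 and WT 3 shared the only slide that held both genotypes and were scanned on another day than the rest, KHSRP-KO 2 and 3 shared a slide, and WT 1 and 2 shared a slide. KHSRP-KO 3 was the only array on which the scanner software had applied a multiplicative correction across the surface.

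The level of Fubp1 was higher in KHSRP-KO neocortex, by the widest margin of the 3 genes. Its probe, ASMM10P026645, gave a processed signal, which is the fluorescence of the spot after background subtraction, of 14617, 11900 and 13227 on KHSRP-KO arrays 1, 2 and 3 and of 7558, 8107 and 5534 on WT arrays 1, 2 and 3. Every KHSRP-KO array was brighter than every WT array before any scaling, and the spot stood between 295 and 817 times above its local background. The scaled log2 signal was 4.98, 5.08 and 5.27 on the KHSRP-KO arrays and 3.96, 4.03 and 3.71 on the WT arrays. The means were 5.11 ± 0.14 (SD, n = 3) and 3.90 ± 0.17 (SD, n = 3), a log2 difference of 1.21 (SE 0.16), or 2.32-fold, with 2.07-fold and 2.60-fold at 1 SE to either side. The lowest KHSRP-KO array lay 0.96 above the highest WT array on the log2 scale, which is more than the range of 0.28 among the KHSRP-KO arrays or of 0.32 among the WT arrays.

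Within the slide that held both genotypes, Fubp1 was 1.28 higher on KHSRP-KO 1 than on WT 3, and between the other slides the mean of KHSRP-KO 2 and 3 was 1.18 above that of WT 1 and 2. On the scaled log2 scale, the lowest array of each genotype was the one on that shared slide. WT 3 lay 0.29 below the mean of WT 1 and 2, and KHSRP-KO 1 lay 0.19 below the mean of KHSRP-KO 2 and 3. Before scaling, WT 3 was also the lowest WT array, but KHSRP-KO 1 was the brightest KHSRP-KO array, and its place at the low end follows from its 75th percentile of 8.85, the highest of its genotype.

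The level of Syncrip was also higher in KHSRP-KO, on a dim probe. Its probe, ASMM10P041967, gave a processed signal of 102.7, 115.0 and 76.5 on KHSRP-KO arrays 1, 2 and 3 and of 61.8, 80.5 and 60.6 on WT arrays 1, 2 and 3. As scanned, KHSRP-KO 3 was dimmer than WT 2, so the genotypes overlapped before scaling. The spot was well above background on every array and stood between 4.67 and 7 times above its local background. None of the 300 negative control spots reached the Syncrip signal on 5 of the arrays, and 0.667% of them did on WT 1.

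After scaling, the log2 signal of Syncrip was -2.17, -1.61 and -2.17 on the KHSRP-KO arrays and -2.97, -2.62 and -2.80 on the WT arrays. KHSRP-KO 2 stood above the other arrays of its genotype, which lay close together, and the genotypes no longer overlapped. The means were -1.98 ± 0.32 (SD, n = 3) and -2.80 ± 0.17 (SD, n = 3), a log2 difference of 0.82 (SE 0.21), or 1.76-fold, with 1.53-fold and 2.04-fold at 1 SE to either side. The gap of 0.46 between the lowest KHSRP-KO and the highest WT array was smaller than the range of 0.56 among the KHSRP-KO arrays. Without KHSRP-KO 2 the difference was 0.63, close to the 0.64 between the arrays of the shared slide.

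The level of Cpeb2 differed least, and how much depended on how the arrays were scaled. Its probe, ASMM10P005777, gave a processed signal of 323.1, 250.4 and 230.6 on KHSRP-KO arrays 1, 2 and 3 and of 258.7, 279.7 and 204.0 on WT arrays 1, 2 and 3. Before scaling, both WT 1 and WT 2 were brighter than both KHSRP-KO 2 and KHSRP-KO 3, and the genotypes overlapped. The spot stood between 11.5 and 20.8 times above its local background, and 0% of the negative control spots reached it on any array.

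After scaling, the log2 signal of Cpeb2 was -0.51, -0.49 and -0.58 on the KHSRP-KO arrays and -0.91, -0.83 and -1.05 on the WT arrays. Every KHSRP-KO array then lay above every WT array, with a gap of 0.25 and a range of only 0.09 among the KHSRP-KO arrays. The means were -0.53 ± 0.04 (SD, n = 3) and -0.93 ± 0.11 (SD, n = 3), a log2 difference of 0.40 (SE 0.14), or 1.32-fold, with 1.2-fold and 1.46-fold at 1 SE to either side. On the shared slide the difference was 0.54, and between the other slides it was 0.34.

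**Figure D1:**
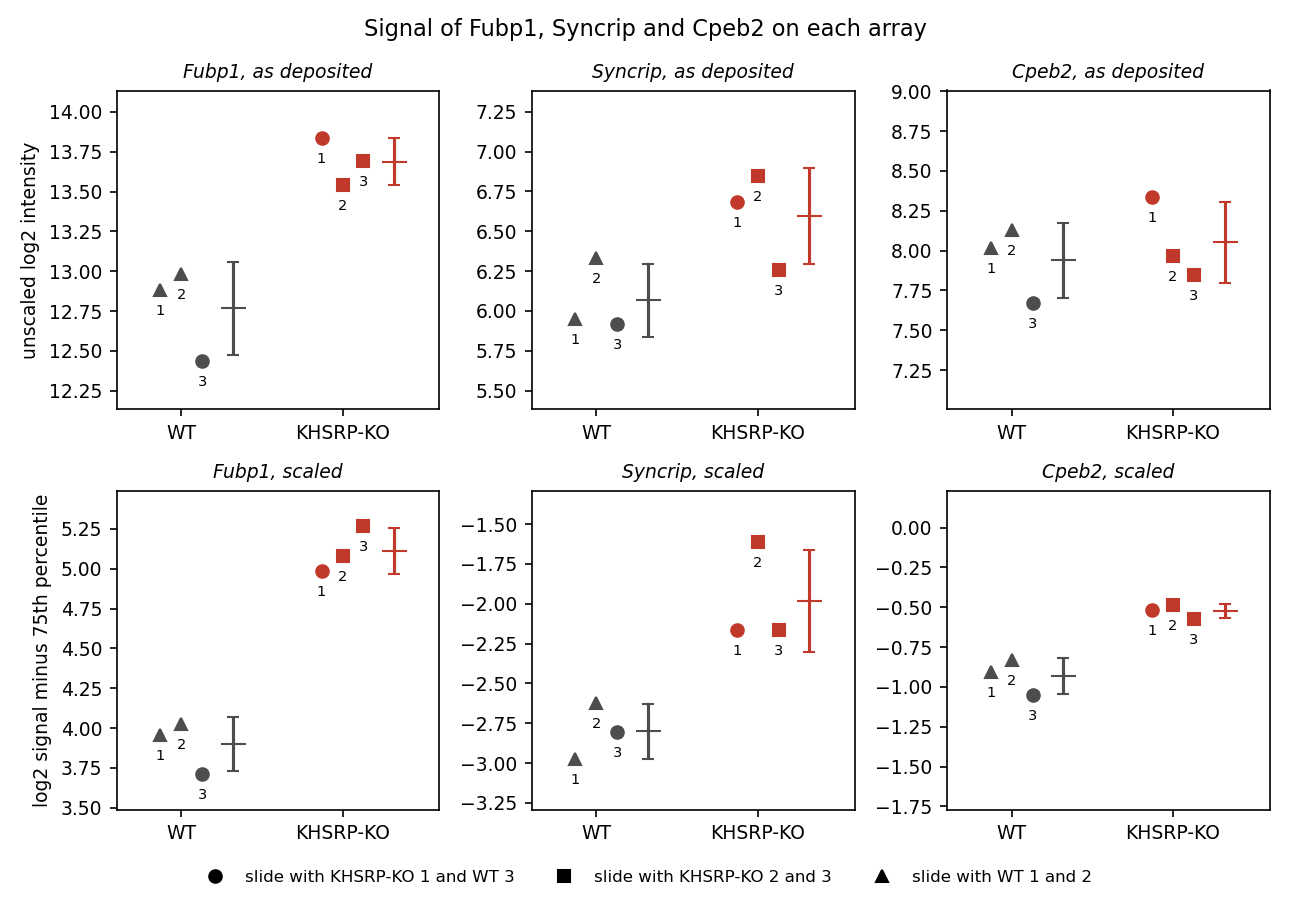
Log2 processed signal of Fubp1, Syncrip and Cpeb2 on each array before scaling (top row) and after subtraction of each array's 75th percentile (bottom row), for WT (grey) and KHSRP-KO (red) with the replicate number below each point, the slide as the marker shape, and the mean with the SD of 3 arrays beside the points. The genotypes do not overlap for Fubp1 in either row, while those of Syncrip and Cpeb2 overlap in the top row and are apart in the bottom row, by 0.46 and 0.25; each panel spans the same length of log2 scale.

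For Fubp1 and Syncrip the order of the genotypes was the same on and off the shared slide whether or not the arrays were scaled, and for Cpeb2 it was not. The 75th percentile of the KHSRP-KO arrays was on average 0.29 below that of the WT arrays on the log2 scale, so scaling raised each difference by that amount. On the shared slide the percentile of the KHSRP-KO array was instead 0.13 above that of the WT array, and on the other slides it was 0.50 below. Without scaling, the difference for Fubp1 was 1.40 on the shared slide and 0.68 between the other slides.

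For Syncrip the unscaled differences were 0.76 on the shared slide and 0.41 between the other slides. For Cpeb2 they were 0.66 and -0.16, so that its unscaled direction differed between the slides. Over all 6 arrays the unscaled differences were 0.92 for Fubp1, 0.53 for Syncrip and 0.11 for Cpeb2, where the median of all probes was -0.29.

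All KHSRP-KO arrays lay above all WT arrays for 3 of the 3 genes after scaling, as they did for 12.4% of the probes measured on each of the arrays. All 3 genes were also at least 1.25-fold higher, as were 18.7% of the probes compared. Without scaling, 1 of the 3 genes, Fubp1, had no overlap, against 4.20% of the probes. The table that gave the genes was selected on this contrast, and nothing is read from these counts. The only named markers of cell types, 2 of 24, were higher as well, Snap25 by 0.55 (SE 0.20) and Slc1a2 by 0.48 (SE 0.18), with all KHSRP-KO arrays above all WT arrays for each. Their differences on the shared slide were 0.33 and 0.15. Both were named from the same table, both exceeded the difference of Cpeb2 over all arrays, and the part of cell type makeup in the differences of the 3 genes was not tested.

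Among the 48438 probes compared, 546 probes, or 1.13%, had a larger log2 difference than Fubp1. The corresponding numbers were 1574, or 3.25%, for Syncrip and 6741, or 13.9%, for Cpeb2. Within the 1480 probes of the study's list of higher probes that were compared, Fubp1 ranked 105, Syncrip 303 and Cpeb2 1276 by log2 difference. Cpeb2 thus lay near the low end of the list it was taken from.

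**Figure D2:**
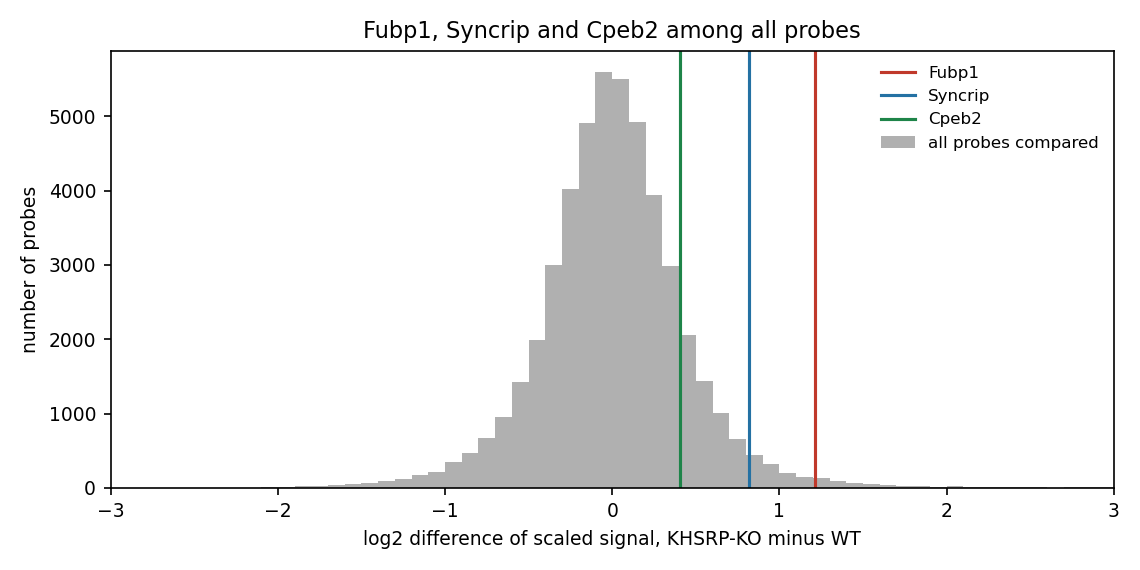
Distribution of the log2 difference of scaled signal, KHSRP-KO minus WT, over the 48438 probes compared, with the number of probes in steps of 0.1 (bars) and lines at Fubp1, Syncrip and Cpeb2. Fubp1 at 1.21 and Syncrip at 0.82 lie in the upper tail and Cpeb2 at 0.40 lies on the shoulder of the distribution; 41 probes at or beyond 3 on either side are not drawn.

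The 3 genes varied by different amounts between mice of the same genotype. The pooled SD of the scaled log2 signal within genotype was 0.16 for Fubp1, 0.26 for Syncrip and 0.09 for Cpeb2, where the median residual SD over all probes was 0.25. A smaller SD than theirs was found for 19.6% of the probes for Fubp1, 53.8% for Syncrip and 3.14% for Cpeb2. A table selected on the size and the p-value of the difference holds small differences mainly where the spread is small, so the low SD of Cpeb2 is not independent of how the genes were chosen. The SE from limma, which draws each probe's spread towards that of all probes, was wider for Cpeb2 than its own arrays would give.

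The genes can also be set against each other within an array, since subtracting 1 number from all log2 signals of an array leaves the ratio of 2 probes as it was. Quantile normalization and normexp are not of that kind. The log2 ratio of Fubp1 over Cpeb2 was higher by 0.81 (SE 0.11, from the SDs of the groups) in KHSRP-KO, with a gap of 0.63 between the genotypes. The ratio of Syncrip over Cpeb2 was higher by 0.42 (SE 0.19), with a gap of 0.10. The ratio of Fubp1 over Syncrip was higher by 0.39 (SE 0.25), and its arrays overlapped between genotypes.

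On the shared slide the ratios differed by 0.74 for Fubp1 over Cpeb2, 0.10 for Syncrip over Cpeb2 and 0.64 for Fubp1 over Syncrip. These values come from the contrast that chose the genes and are given with no test.

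The direction of each of the 3 genes was kept under 19 alternatives of processing and of left-out arrays, and the size was not. Most of the 19 could not have changed the direction. A gene without overlap cannot reverse when an array is left out, nor when the shared slide is read alone. The replicate block and the filters on dim probes leave the difference as it is. Fubp1 ranged from 0.92 without scaling to 1.28 without WT 2. Syncrip ranged from 0.53 without scaling to 0.91 without KHSRP-KO 1. Cpeb2 ranged from 0.11 without scaling to 0.54 with the slide as a block, which reads the difference on the shared slide alone.

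When the arrays were scaled by the mean of 15 control genes with 20 spots each, a choice made after the data were seen, the log2 differences were 1.03 for Fubp1, 0.64 for Syncrip and 0.22 for Cpeb2, and Cpeb2 then overlapped between genotypes. After scaling by the 75th percentile, 12 of those control genes were themselves higher in KHSRP-KO, with a median difference of 0.20 and a range from -0.43 to 0.67. The difference of Cpeb2 lay inside that range, and those of Fubp1 and Syncrip, which were chosen as higher, lay above it. The control genes were bright, with a mean unscaled log2 signal of 12.9 to 13.2 on an array. Their range does not bound the spread of 1 dim spot such as that of Syncrip, at 5.92 to 6.85.

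The correction across the surface of KHSRP-KO 3 moved its log2 signal by -0.04 for Fubp1, -0.09 for Syncrip and 0.14 for Cpeb2. With the background-subtracted signal, which leaves this correction out and was also chosen after the data were seen, the differences were 1.23, 0.85 and 0.36, and no gene overlapped between genotypes. In the authors' normalized log2 values for the same arrays the differences were 1.14 for Fubp1, 0.81 for Syncrip and 0.40 for Cpeb2. The genes were chosen from the authors' own list of higher probes on these arrays, so these values are not independent of the choice.

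**Figure D3:**
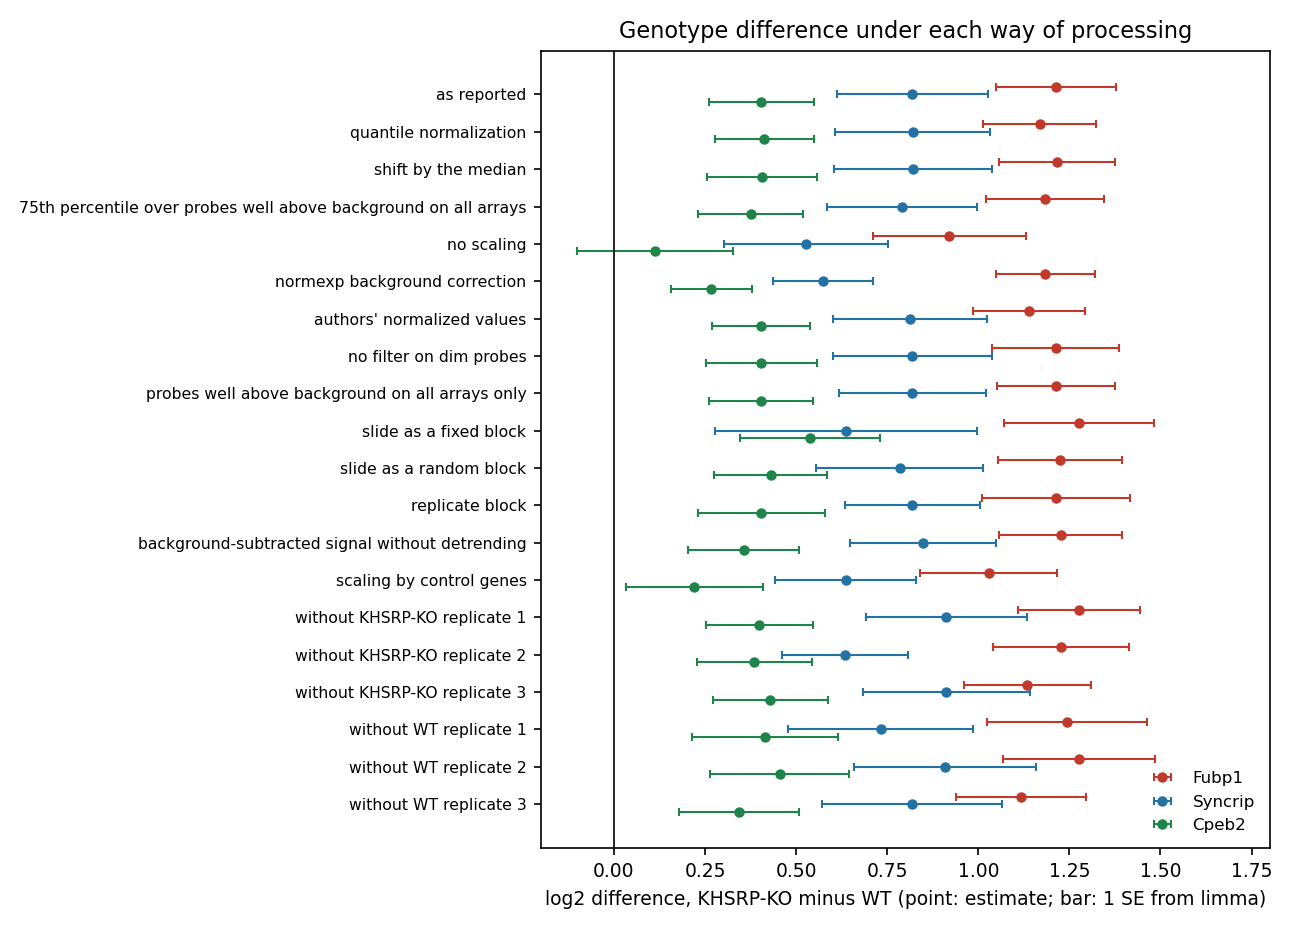
Log2 difference, KHSRP-KO minus WT, of Fubp1 (red), Syncrip (blue) and Cpeb2 (green) as reported and under each of 19 alternatives, with bars of 1 SE from limma. All points lie above 0, the points of Cpeb2 come closest to it at 0.11 without scaling, and Fubp1 lies highest under every alternative.

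Other genes for RNA-binding proteins and for mRNA decay were read from a list of the FUSE-binding, hnRNP and CPEB families, of binders of AU-rich and U-rich elements, of transport granule proteins and of decay factors. Of 74 listed genes besides the 3, 11 had a named probe, with 13 probes, and no other gene of the FUSE-binding or CPEB families was among them. Of these probes, 11 had a higher and 2 a lower scaled signal in KHSRP-KO, with a median log2 difference of 0.48, where the median of all probes was 0.00. KHSRP-KO arrays lay all above WT arrays for 10 of the 13 probes, against 12.4% of all probes, and all below them for 2, against 9.90% of all probes. Probes were named only if the study's table held them, which selects probes that differ, and mostly higher ones. That table named 1522 probes as higher and 266 as lower in KHSRP-KO. The counts and the median therefore say nothing about these families as a whole.

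Fubp1 and Syncrip had larger differences than any of the 11 higher probes, which ranged from 0.32 to 0.66, and Cpeb2 lay within that range. Those 11 probes all lay inside the range of the control genes under the same scaling, from -0.43 to 0.67. Without scaling they ranged from 0.03 for Cnot7 to 0.37 for Fxr1. Syncrip's relatives Hnrnpa3 and Hnrnpll, which encode RNA-binding proteins of the hnRNP group, were 0.44 (SE 0.15) and 0.48 (SE 0.21) higher, and Hnrnpa3 differed by 0.20 on the shared slide, while Hnrnpll overlapped between genotypes and differed by -0.03 there. Among genes of transport granules, in which Syncrip protein is also found, Fxr1 was 0.66 (SE 0.18) higher, Igf2bp3 was 0.52 (SE 0.16) higher, and the probes of Stau2 were 0.46 and 0.57 higher. On the shared slide the difference was 0.29 for Fxr1, 0.53 for Igf2bp3, and 0.05 and 0.20 for Stau2.

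Celf1, which binds GU-rich elements and promotes decay, was 0.48 (SE 0.20) higher, and the deadenylase subunits Cnot6 and Cnot7 were 0.56 (SE 0.19) and 0.32 (SE 0.16) higher. On the shared slide the differences were 0.80 for Celf1, more than for Syncrip, 0.16 for Cnot6 and 0.38 for Cnot7, and without scaling Cnot7 differed by only 0.03. The Celf1 probe was flagged well above background on all 6 arrays but was dimmer than that of Syncrip on each of them. Its signal lay below the brightest negative control spot on every array, as that of Syncrip did on WT 1 alone. The Celf1 signal was lowest on WT 3 of the shared slide, at -4.11 on the scaled log2 scale. The neuronal ELAV proteins, which bind AU-rich elements and are known to stabilize mRNAs, differed in direction. The probes of Elavl2 were 0.63 (SE 0.21) and 0.55 (SE 0.18) higher, while Elavl3 was -0.79 (SE 0.19) and Elavl4 -1.36 (SE 0.38) in KHSRP-KO against WT. On the shared slide the probes of Elavl2 differed by 0.44 and 0.56 and Elavl3 by -0.81. For Elavl4 the SD among the KHSRP-KO arrays was 0.80 and the difference on the shared slide was -0.33.

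**Figure D4:**
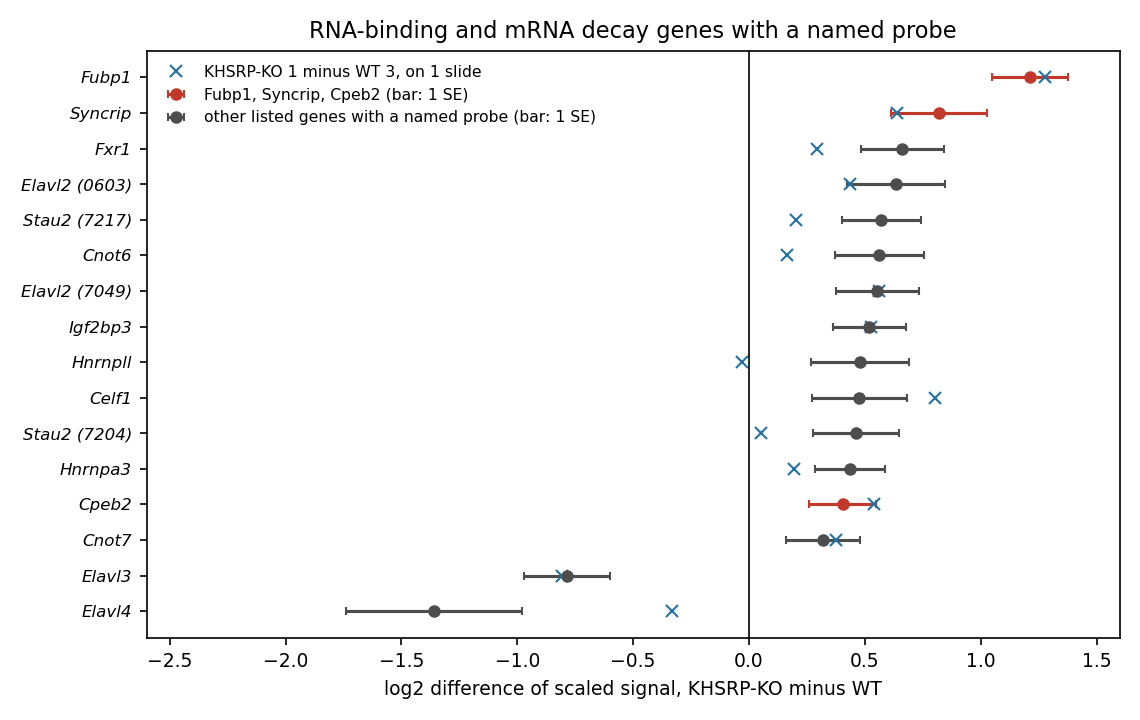
Log2 difference of scaled signal, KHSRP-KO minus WT, for Fubp1, Syncrip and Cpeb2 (red) and the other listed RNA-binding and mRNA decay genes with a named probe (dark grey), with bars of 1 SE from limma and crosses for KHSRP-KO 1 minus WT 3 on the shared slide; for genes with several probes the last 4 digits of the probe name are given. Fubp1 at 1.21 and Syncrip at 0.82 lie highest, Cpeb2 at 0.40 lies among the other higher genes, and Elavl3 and Elavl4 lie below 0.

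The named genes whose pattern over the 6 arrays was most like each of the 3 were found by the root mean square difference between scaled log2 profiles, each centred on its own mean, over 1595 candidate genes. For Fubp1 they were Ribc1, Ccdc62 and CK137956, at 0.09, 0.09 and 0.12, where the median candidate was at 0.40. For Syncrip they were B230217C12Rik, Chml and Elovl7, at 0.07, 0.09 and 0.11, against a median of 0.31. For Cpeb2 they were Sorcs1, Tle2 and Mn1, at 0.04, 0.04 and 0.05, against a median of 0.23.

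No gene was on more than 1 of these lists. The measure picks genes with a like difference and like single arrays, so the values that follow describe the choice. Ribc1, Ccdc62 and CK137956 were 1.18, 1.13 and 1.29 higher in KHSRP-KO. B230217C12Rik, Chml and Elovl7 shared with Syncrip the high value of KHSRP-KO 2, at -0.88, -3.62 and -1.23 on the scaled log2 scale, above KHSRP-KO 1 and 3 for each. Chml and Ccdc62 were dim, with signals within the range of the negative control spots on every array, so their patterns rest on values near the floor. Sorcs1, Tle2 and Mn1 were 0.36, 0.38 and 0.43 higher, and WT 3 was the lowest array for each of them, as it was for Cpeb2. All candidates come from the same arrays and most from the same list of higher probes.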

How the data were processed

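The authors deposited scanner output of Agilent Feature Extraction 11.0.1.1, whose processed signal is a background-subtracted intensity on a linear scale, and, for these arrays, a table of log2 values they had normalized. How they did this is not given in the sources used here, and the submitters' processing notes name limma. Control, negative control and outlier spots were left out, log2 intensities of spots of the same probe were averaged, and each array's 75th percentile was subtracted. Only probes that at least 3 arrays showed well above background entered. Differences and SEs come from limma 3.58.1 (lmFit, then eBayes, in R 4.3.3), with a prior of 3.19 degrees of freedom, first tested on simulated data. Only probe names were taken from the study's supplementary table; 266 of the names, for its lower probes, were found by matching scanner values within 2e-05.

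The genes, lists and alternatives were chosen with earlier results of these data known. Named genes are the 3 genes, listed related genes with a named probe, and for each of the 3 the 3 genes nearest in pattern, taking the brightest probe of a gene. Alternatives were other scalings, normexp with an offset of 50, the authors' values, other filters, slide and replicate blocks and each array left out. The sample labels do not say whether replicate numbers pair the mice, and the main comparison left the mice unpaired. Tables and plots were made with pandas 2.3.3 and matplotlib 3.10.9.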

Additional observations from a re-analysis of the deposited data

How the results depend on the processing

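Fubp1, Syncrip and Cpeb2 were higher in KHSRP-KO under all 19 alternatives, most of which could not have reversed them. Without scaling their log2 differences were 0.92, 0.53 and 0.11, 1 of the 3 genes had no overlap between genotypes, and 2029 probes had all KHSRP-KO arrays above all WT arrays, against 6012 with scaling. Scaling by control genes gave 1.03 for Fubp1, 0.22 for Cpeb2 and 2845 such probes, with 2 of the 3 genes free of overlap. Normexp gave 1.18 for Fubp1, 0.57 for Syncrip and 0.27 for Cpeb2. The slide as a fixed block gave 1.28 (SE 0.21) for Fubp1, 0.64 (SE 0.36) for Syncrip and 0.54 (SE 0.19) for Cpeb2. The cause was not tested beyond the array shifts given above. Leaving out each array gave 1.12 to 1.28 for Fubp1, 0.63 to 0.91 for Syncrip and 0.34 to 0.46 for Cpeb2. The 3 genes stayed without overlap each time, which was fixed in advance, since leaving out an array cannot create an overlap. For the same reason the number of probes with all KHSRP-KO arrays above all WT arrays could only stay at 6012 or rise. It was 6797 to 11957, with 11957 without KHSRP-KO 1 and 10129 without WT 3, the arrays of the shared slide. Why the count rose most without these arrays was not tested. With the replicate number as a block the differences are 1.21, 0.82 and 0.40 by construction, since each number holds 1 array of each genotype. Only the SEs could change, and they were 0.20, 0.19 and 0.17. Deviations of same-numbered arrays correlated at -0.31, 0.10 and -0.31, and those of KHSRP-KO 1 and WT 3 at 0.39. Arrays of the same number lay on different slides, so these correlations cannot show whether the numbers pair mice. Counts of arrays that do not overlap cannot be formed under a block. The Syncrip spot, at 4.67 to 7 times its background, was the dimmest of the 3 genes. With 3 mice a genotype and 1 probe a gene, spread between probes of a gene was not measured.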
